A study of Rattus norvegicus with 9 samples.

Results

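Matrix metalloproteinases (MMPs) and their tissue inhibitors (TIMPs) were measured as 10 genes in bulk RNA from rat femur: the protease genes Mmp2, Mmp3, Mmp9, Mmp12, Mmp13, Mmp14 and Mmp19, and the inhibitor genes Timp1, Timp2 and Timp3. They were taken by symbol from a count table of 31125 gene rows, in which each of the 10 symbols had 1 row and in which 27 genes in all carried an MMP or TIMP symbol (23 and 4). All 10 are annotated as protein-coding. The femurs came from male rats at day 7 and fell into 3 groups of 3 libraries. Sham rats had sham surgery, GPI rats had an injury of the growth plate at the distal end of the femur, and GMTT rats had that same injury and then received GMTT, a hydrogel. Its parts, going by the series title, are GelMA (gelatin with methacrylate groups), TPGS (a form of vitamin E) and tea-derived polyphenols, and the title concerns NLRP3- and caspase-1-dependent death of chondrocytes. The sample labels describe the GMTT femurs, though injured, as having an intact growth plate, and the Sham and GPI femurs only as intact. No strain or age is given, and there is no injured group with another gel and no uninjured group with a gel among these samples. The labels state 3 specimens a group without saying which rat each library came from or whether rats were pooled, and the spread behind each p-value is that between libraries, which may be technical.

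MMPs are zinc-dependent proteases that are made as inactive proenzymes and, once a propeptide is removed, cut collagens, proteoglycans and other matrix proteins. TIMPs bind the active site of these enzymes and block it, and TIMP2 also takes part in the activation of pro-MMP2 by the membrane-bound MMP14. In the growth plate and in healing bone, MMP13 (a collagenase of hypertrophic chondrocytes and osteoblasts) and MMP9 (a gelatinase of osteoclasts and neutrophils) are known for clearing cartilage matrix as vessels and marrow move in, while MMP3 and MMP12 are best known from inflamed joints and from macrophages.

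Mmp3, Mmp12 and Mmp13 lie in 1 cluster of 10 MMP genes on rat chromosome 8 (mRatBN7.2, 4497960 to 4855902, 358 kb), and their promoters are shown because these neighbours differed widely in counts, Mmp3 and Mmp12 having the lowest of the 10 genes in Sham and in GPI and Mmp13 among the highest in Sham and in GMTT. The sequences are the 250 bases before the annotated start, 5′ to 3′ on the gene's strand, from RefSeq on the build GRCr8, which is not the build of the count table. Promoters of 6 of the 10 genes were matched by symbol. Capitals mark matches to an AP-1 element (TGANTCA) or a RUNX element (AACCACA), searched on both strands.
Mmp3 promoter, chr8:12925031-12925280, plus strand: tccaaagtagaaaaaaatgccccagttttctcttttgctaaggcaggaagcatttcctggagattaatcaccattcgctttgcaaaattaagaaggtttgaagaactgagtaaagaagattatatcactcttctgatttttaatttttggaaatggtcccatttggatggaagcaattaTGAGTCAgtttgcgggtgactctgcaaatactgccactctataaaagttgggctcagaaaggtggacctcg
Mmp12 promoter, chr8:12866402-12866651, plus strand: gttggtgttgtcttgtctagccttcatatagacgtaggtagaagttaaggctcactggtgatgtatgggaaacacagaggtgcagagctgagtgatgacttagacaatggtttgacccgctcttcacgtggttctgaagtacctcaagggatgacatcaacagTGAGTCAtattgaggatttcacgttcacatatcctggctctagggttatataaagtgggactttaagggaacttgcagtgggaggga
Mmp13 promoter, chr8:12782579-12782828, plus strand: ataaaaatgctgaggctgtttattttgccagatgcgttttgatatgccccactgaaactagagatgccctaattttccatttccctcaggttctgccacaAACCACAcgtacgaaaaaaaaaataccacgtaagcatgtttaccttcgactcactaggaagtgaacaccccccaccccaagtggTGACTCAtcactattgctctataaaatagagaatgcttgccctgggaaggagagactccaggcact
Each of the 3 windows held 1 AP-1 match, at -71 to -65 in Mmp3, -87 to -81 in Mmp12 and -66 to -60 in Mmp13, counted back from the annotated start. The Mmp13 window also held 1 RUNX match at -150 to -144. Windows of the same length held an AP-1 match in 6.34% and a RUNX match in 4.59% of the 33469 promoters in the table. The windows of Timp1, Timp2 and Timp3 held neither. A PEA3 element (AGGAAG), present in 29.5% of all windows, was found in Mmp3, Mmp13 and, in 2 places, Timp1. No match overlapped another in these windows. A match describes these letters and not a bound site.

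Libraries held 15927429 to 19715997 counts. Normalised CPM below are counts relative to library depth (CPM) scaled by TMM factors (trimmed mean of M values, a scaling between libraries), with means of 1.28 (Sham), 0.602 (GPI) and 1.29 (GMTT). Log2 fold changes are from the same scale, with their standard error (SE), and the word called means an adjusted p under 0.05 (quasi-likelihood test of edgeR, Benjamini-Hochberg, 15936 genes tested). The tissue makeup differed between the groups. Skeletal muscle markers (14 genes) took 0.265% to 0.281% of counts in Sham, 14.2% to 14.5% in GPI and 2.62% to 2.81% with GMTT, and erythroid markers (13 genes) took 8.01% to 8.94%, 0.104% to 0.114% and 4.28% to 4.69%. Bone markers were found in all groups. The 10 osteoblast and osteocyte markers took 0.687% to 0.740% of counts in Sham, 0.330% to 0.348% in GPI and 0.920% to 1.01% with GMTT. On the TMM scale they summed to 5331 to 5784, 5501 to 5770.5 and 7169 to 7774 normalised CPM. Most of these markers did not follow the sum: 9 of the 10 were lower in GPI than in Sham (Sost at -6.11 log2 units) and 1 was higher (Col1a1, at 0.21, or -0.88 with library sizes only), and in GMTT against Sham 6 were lower and 2 higher. The 10 cartilage markers took 0.0254% to 0.0269% of counts in Sham, 0.0201% to 0.0203% in GPI and 0.0384% to 0.0410% with GMTT, lowest in GPI. On the TMM scale they summed to 198 to 209.5, 333 to 338 and 296 to 319.9 normalised CPM, highest in GPI. Cnmd was at 0 in Sham and GMTT and Matn1 at 0 in GPI. Of the 7 cartilage markers tested, 4 were higher and 2 lower in GPI than in Sham (Col2a1 at -1.90 and Matn3 at -2.78). With library sizes only the split was 0 and 5. In GMTT against Sham 3 were higher and 1 lower (Col2a1 at -2.53). In bulk tissue, fewer cells of a type and less RNA per cell cannot be told apart. The median log2 fold change of all genes was -0.19 for GPI against Sham and 0.12 for GMTT against GPI, but -1.28 and 1.22 with library sizes only, so a change in these contrasts is relative to the TMM scale, while GMTT against Sham had medians of -0.00 and 0.01.

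Of the 10 genes, 9 were called in GPI against Sham (5 higher, 4 lower, Timp1 not called), where 88.2% of all genes tested were called (40.1% higher, 48.1% lower). In GMTT against GPI all 10 were called (7 higher, 3 lower) against 85.9% of all genes (45.7% higher, 40.2% lower). In GMTT against Sham 9 were called, all higher, with Mmp13 not called, against 57.8% of all genes (29.5% higher, 28.3% lower). At a minimum of 2-fold 6 of the 10 were called in GPI against Sham, 6 in GMTT against GPI and 4 in GMTT against Sham (Mmp2, Mmp3, Mmp12 and Mmp14), against 58.3%, 53.0% and 11.6% of all genes. Libraries of GPI and Sham did not overlap for 9 of the 10 genes (5 higher and 4 lower), against 88.3% of all genes (40.1% higher and 48.2% lower). Libraries of GMTT and GPI did not overlap for any of the 10 (7 higher and 3 lower), against 86.2% (46.0% and 40.2%). Libraries of GMTT and Sham did not overlap for 9, each higher in GMTT, against 61.7% (31.4% higher and 30.4% lower). In the first 2 contrasts the members' counts thus lay near the background. The median log2 fold change of the 10 genes was 0.11, 1.18 and 0.79, against -0.19, 0.12 and -0.00 over all genes. Mmp3 and Mmp12 passed the filter on low counts only through GMTT, so they had to differ in the contrasts with GMTT. Both are among the 9 genes called in GMTT against Sham and the 4 called there at 2-fold. The 10 genes were also chosen with earlier results known, so these counts are not read as an excess over the background. The 3 contrasts share libraries in pairs, so their values are given side by side below.

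**Figure D1:**
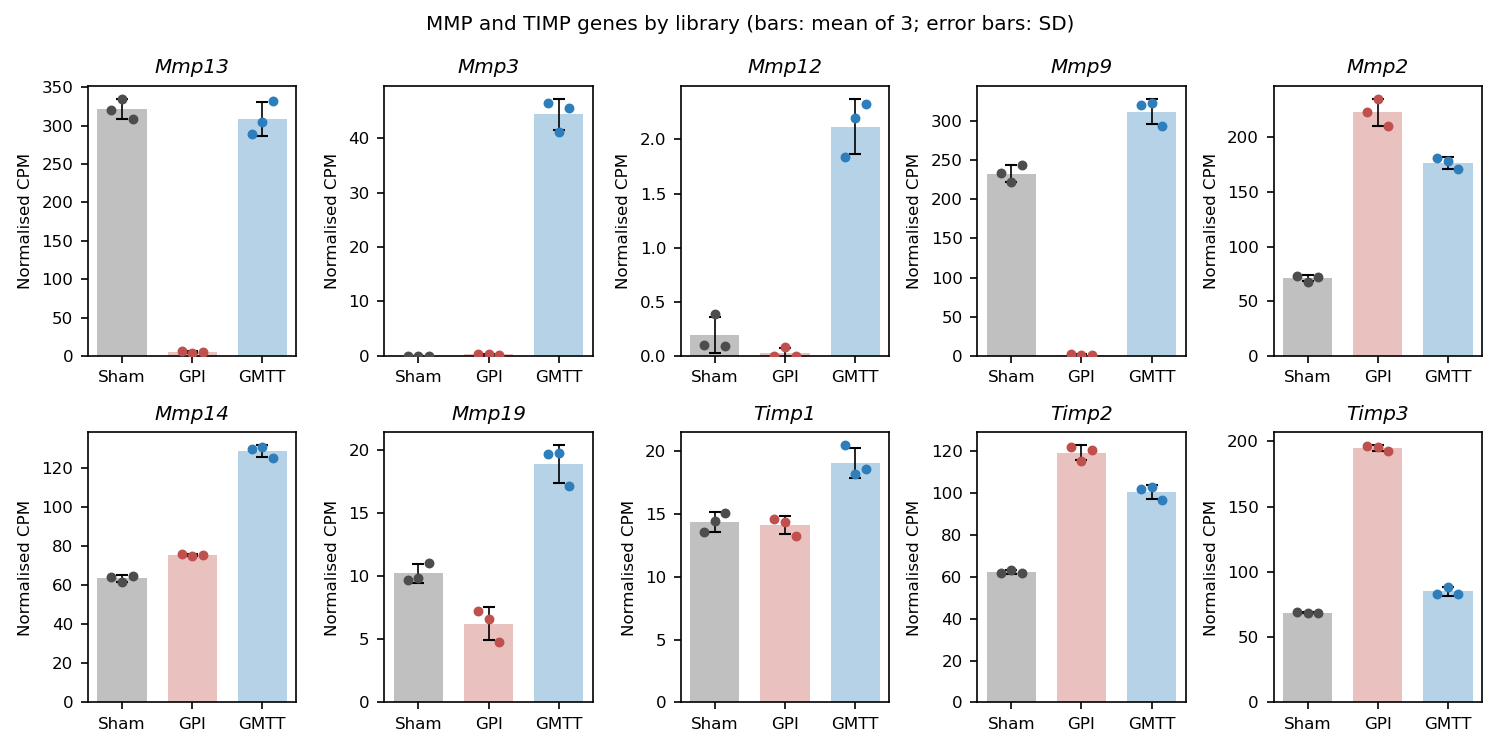
Normalised CPM (linear axes starting at 0) of the 10 genes in each of the 9 libraries; points are libraries, bars the mean of 3 and error bars the SD. Mmp13, Mmp9, Mmp12 and Mmp19 were lowest in GPI. Mmp3 and Mmp12 were near 0 outside GMTT, where Mmp12 reached only 1.84 to 2.33 normalised CPM. Mmp2, Timp2 and Timp3 had their highest values in GPI on this scale, while with library sizes only Mmp2 and Timp2 were higher in GMTT than in GPI.

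Mmp13 (ENSRNOG00000008478, mRatBN7.2 chromosome 8, 4497960 to 4508239, plus strand) encodes collagenase 3, which cuts fibrillar collagen. Sham libraries 1, 2 and 3 held 319.9, 335 and 309 normalised CPM, GPI libraries 5.84, 3.87 and 5.39, and GMTT libraries 289, 305 and 332. GPI was low in every library and apart from both other groups, while Sham and GMTT overlapped. The fold change was -6.00 log2 units (SE 0.09, adjusted p = 8.24e-33) for GPI against Sham and 5.94 log2 units (SE 0.09, adjusted p = 2.15e-32) for GMTT against GPI. GMTT against Sham gave -0.06 log2 units (SE 0.05, adjusted p = 0.363). Mmp13 was the 1 gene of the 10 that was not called between GMTT and Sham.

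Ibsp, a matrix protein gene of osteoblasts, and Col10a1, the collagen of hypertrophic chondrocytes, mark cell types known to make Mmp13, and a ratio of deposited FPKM (fragments per length of gene and per depth of the library, as scaled by the authors) within a library is free of the scaling between libraries. Mmp13 stood at 1.95 ± 0.0712 times Ibsp in Sham, 0.0688 ± 0.0151 in GPI and 1.50 ± 0.0486 in GMTT (mean ± SD, n = 3, as for all such values below). Relative to Col10a1 it stood at 234 ± 59.2, 0.428 ± 0.109 and 283 ± 24.8. Ibsp was itself lower in GPI than in Sham, by less than Mmp13, with a log2 fold change of -1.17 (SE 0.05). Col10a1 was higher in GPI, with 3.05 (SE 0.15) and 4.55 FPKM against 0.542 in Sham. The other hypertrophic chondrocyte markers tested, Pth1r (-1.26) and Panx3 (-2.09), were lower in GPI, so the ratio to Col10a1 holds for that gene and not for its list. The GMTT libraries overlapped Sham for the ratio to Col10a1 and lay below every Sham library for the ratio to Ibsp. Ibsp was 1 of the 2 osteoblast and osteocyte markers higher in GMTT than in Sham (0.32), where 6 were lower. The osteoclast markers (10 genes, 2771 to 2886, 64.4 to 66.5 and 1843 to 1879 summed normalised CPM in Sham, GPI and GMTT, Ocstamp at 0 in GPI) and the monocyte and macrophage markers (10 genes, 4525 to 4833, 187 to 199 and 4755 to 4918) were low in the same libraries, and their part in the Mmp13 values was not tested.

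Mmp3 (ENSRNOG00000032626, mRatBN7.2 chromosome 8, 4640416 to 4653961, plus strand) encodes stromelysin 1, which cuts proteoglycans and fibronectin and activates other proenzymes of the family. It had 0, 0 and 1 counts in Sham libraries 1, 2 and 3, 5, 4 and 2 in GPI and 1089, 936 and 1036 in GMTT. Mmp3 was near 0 in both other groups and high in every GMTT library, where normalised CPM was 46.5, 41.1 and 45.5. Summed over libraries and scaled, GMTT exceeded Sham by a ratio of 2897 (95% counting interval 519.5 to 114453) and GPI by 138 (95% counting interval 76.8 to 276); these intervals cover counting error only. The fitted log2 fold change of GMTT against Sham, 10.98 log2 units (SE 0.22, adjusted p = 2.34e-28), ranked 1 of the 15936 genes tested from the highest, though a fitted value against 1 count depends on the prior count. GMTT against GPI gave 7.07 log2 units (SE 0.18, adjusted p = 9.94e-27). Mmp3 passed the filter on low counts only through GMTT, so it had to differ in these contrasts. The rank and both adjusted p-values are given as description only.

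Mmp3 was also called higher in GPI than in Sham (3.90 log2 units, SE 0.91, adjusted p = 0.000208), on 11 counts against 1, a ratio of 21.1 (95% counting interval 3.06 to 906). Every GPI library held more counts than any Sham library. In GMTT, Mmp3 reached 24.2 ± 1.58 FPKM, and its range of 22.4 to 25.5 overlapped that of Timp1 (20.8 to 23.5). Markers of the synovial lining and tendon (8 genes), tissues in which Mmp3 is known to be made, summed to 53.7 to 59.4 normalised CPM in Sham, 676 to 705 in GPI and 266 to 282 in GMTT. The sum was highest in GPI. Of the 8 genes, 2 were higher and 5 lower in GMTT than in GPI, or 5 and 3 with library sizes only. Within that list the lubricin gene Prg4 stood at 0.599, 10.7 and 22.4 FPKM, with its highest mean in GMTT; its part in the Mmp3 values was not tested.

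Mmp12 (ENSRNOG00000030187, mRatBN7.2 chromosome 8, 4581785 to 4599611, plus strand) encodes the macrophage metalloelastase. It had 2, 9 and 2 counts in the Sham libraries, 0, 1 and 0 in GPI and 43, 50 and 53 in GMTT. All GMTT libraries lay above all others, and Sham replicate 2 held 9 of the 13 Sham counts. GMTT exceeded Sham by a ratio of 10.6 (95% counting interval 6.02 to 20.4) and the fitted change was 3.37 log2 units (SE 0.35, adjusted p = 1.19e-09). Against GPI, which held 1 count in all, the ratio was 72.2 (95% counting interval 12.8 to 2869.7) and the change 5.88 log2 units (SE 0.64, adjusted p = 5.63e-10). Mmp12 too passed the filter on low counts only through GMTT, so both adjusted p-values are given as description only. GPI was lower than Sham, at -2.51 log2 units (SE 1.12, adjusted p = 0.0366), and the ratio of Sham over GPI was 6.79 (95% counting interval 1.02 to 289). That call was lost without Sham replicate 2 (adjusted p = 0.276), without GPI replicate 1 (0.126) or 3 (0.108), with DESeq2 (0.0520), and with limma on log2(FPKM + 1) with the filter on low values (0.138) and without it (0.198), in a range of 0.00208 to 0.276 over the alternatives.

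Relative to Cd68, a macrophage lysosomal gene, Mmp12 stood at 0.00232 ± 0.00216 in Sham, 0.00517 ± 0.00895 in GPI, where 1 count gives all of the value, and 0.0211 ± 0.00310 in GMTT by FPKM. The ratio in GMTT ran from 0.0182 to 0.0244, above the highest Sham library at 0.00481. Macrophage markers summed to 4525 to 4833 normalised CPM in Sham and 4755 to 4918 in GMTT, ranges that overlapped. Of these 10 markers 6 were higher and 2 lower in GMTT than in Sham, with a median log2 fold change of 0.21. At its 3′ end Mmp12 overlaps Mmp1b, on the opposite strand, which had 4 counts in the 9 libraries.

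The other 7 MMP genes of the chromosome 8 cluster differed widely in their counts. Mmp8, the neutrophil collagenase, held 26527 counts over the Sham libraries, 23 over GPI and 42195 over GMTT, with log2 fold changes of -9.22 (SE 0.10) for GPI against Sham, 9.81 (SE 0.10) for GMTT against GPI and 0.59 (SE 0.04) for GMTT against Sham. Mmp10, the stromelysin nearest in kind to Mmp3, held 4, 1 and 4 counts. Mmp1 held 1, 0 and 0, Mmp1b 0, 0 and 4, Mmp7 33, 0 and 18, Mmp20 7, 0 and 5, and Mmp27 30, 2 and 33. Of these 10 neighbours Mmp3, Mmp12 and Mmp8 were called higher in GMTT than in Sham. Mmp13, Mmp7 and Mmp27 were tested and not called, and the other 4 were too low to test. Mmp3 and Mmp12 passed the filter on low counts only through GMTT. They thus had to differ there, and their calls do not set them apart from the other neighbours.

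Mmp9 (ENSRNOG00000017539, mRatBN7.2 chromosome 3, 153683858 to 153692120, plus strand) encodes gelatinase B, made by osteoclasts and stored in neutrophil granules. The Sham libraries held 233, 222 and 243 normalised CPM, the GPI libraries 2.03, 0.924 and 1.16 and the GMTT libraries 319.6, 322 and 293. No groups overlapped, and GMTT stood above Sham in 3 of 3 libraries. GPI against Sham gave -7.39 log2 units (SE 0.11, adjusted p = 2.78e-33) and GMTT against GPI 7.81 log2 units (SE 0.11, adjusted p = 9.57e-34). The difference between GMTT and Sham was small beside these, at 0.42 log2 units (SE 0.05, adjusted p = 4.63e-08), and was not called with limma on log2(FPKM + 0.1) (adjusted p = 0.0886, in a range of 7.91e-17 to 0.0886 over the alternatives).

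Markers of both cell types were low in GPI, as Mmp9 was. Osteoclast markers, summed as given for Mmp13, were lower in GMTT than in Sham, and neutrophil and precursor markers (10 genes, Mmp8 among them) summed to 7391 to 7954 normalised CPM in Sham, 8.48 to 10.3 in GPI and 8767 to 9278 in GMTT. By FPKM, Mmp9 was 0.680 ± 0.0151 times the osteoclast phosphatase gene Acp5 in Sham, 0.133 ± 0.0454 in GPI and 1.18 ± 0.0409 in GMTT. Against the osteoclast protease Ctsk it stood at 0.275 ± 0.00897, 0.0179 ± 0.00742 and 0.419 ± 0.0266. Both ratios had separate ranges in the 3 groups. Acp5 and Ctsk were lower in GPI than in Sham by less than Mmp9, with log2 fold changes of -5.07 and -3.47, and were lower in GMTT than in Sham (-0.37 and -0.18) where Mmp9 was higher. Of the 10 osteoclast markers 5 were higher and 4 lower in GMTT than in Sham, with a median log2 fold change of 0.07. Against the neutrophil elastase gene Elane it stood at 0.523 ± 0.0207 in Sham and 0.459 ± 0.0228 in GMTT, lower in GMTT; Elane had 2 counts in GPI and gave no stable ratio there. How far either cell type accounts for the Mmp9 values was not tested.

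**Figure D2:**
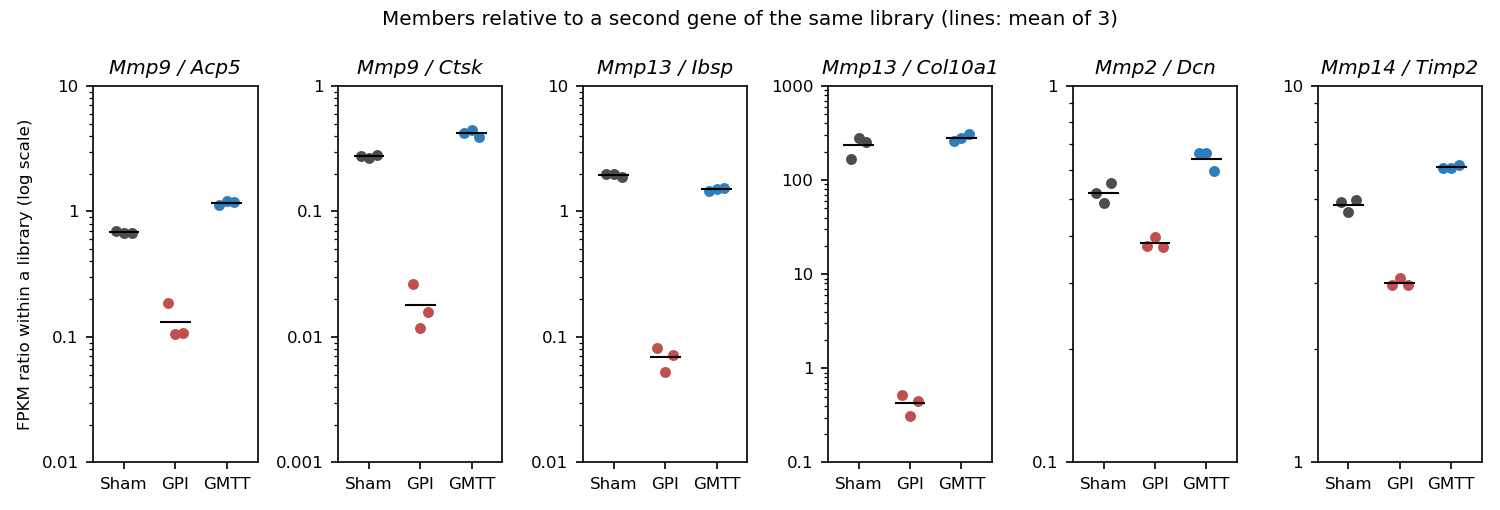
FPKM ratios within each library on log axes for 6 gene pairs; points are the 3 libraries of a group and lines their mean. Mmp9 relative to Acp5 and Ctsk and Mmp13 relative to Ibsp and Col10a1 were lowest in every GPI library, and so were Mmp2 relative to Dcn and Mmp14 relative to Timp2, over a narrower range.

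Mmp2 (ENSRNOG00000016695, mRatBN7.2 chromosome 19, 14154657 to 14182870, minus strand) encodes gelatinase A, made by fibroblasts and other stromal cells. Its normalised CPM was 72.8, 67.9 and 72.3 in Sham libraries 1, 2 and 3, 223, 235 and 210.1 in GPI and 181, 178 and 171 in GMTT. Sham was lowest and the groups did not overlap. GPI exceeded Sham by 1.65 log2 units (SE 0.05, adjusted p = 5.97e-24) and GMTT exceeded Sham by 1.31 log2 units (SE 0.05, adjusted p = 2.86e-20). GMTT was below GPI on this scale, at -0.34 log2 units (SE 0.05, adjusted p = 2.99e-07), but above it with library sizes only (0.77 log2 units).

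Fibroblast and stromal markers (10 genes) summed to 836 to 840.2 normalised CPM in Sham, 2241 to 2296 in GPI and 1799 to 1846 with GMTT, the same order as Mmp2 on this scale. Relative to Dcn, the fibroblast proteoglycan decorin, Mmp2 stood at 0.521 ± 0.0315 in Sham, 0.382 ± 0.0126 in GPI and 0.640 ± 0.0403 in GMTT by FPKM. This ratio was lowest in GPI and its ranges did not overlap, so Mmp2 rose less than Dcn in GPI and more than Dcn in GMTT relative to Sham. That holds for Dcn and not for its list. Against Sham, 8 of the 10 markers were higher and 2 lower in GPI (median 1.41 log2 units). In GMTT 8 were higher and 1 lower (median 0.95). Col6a1 and Col6a2, of the same list, were among the genes closest to Mmp2 in pattern. The part of stromal cell number in the Mmp2 values was not tested.

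Mmp14 (ENSRNOG00000010947, mRatBN7.2 chromosome 15, 27887727 to 27899864, plus strand) encodes the membrane-bound MT1-MMP, which cuts collagen at the cell surface and activates pro-MMP2. Sham libraries held 64.0, 61.4 and 64.6 normalised CPM, GPI libraries 76.0, 75.0 and 75.1 and GMTT libraries 129.8, 131 and 125. GMTT was highest in every library, by 1.02 log2 units (SE 0.05, adjusted p = 8.29e-18) over Sham and 0.77 log2 units (SE 0.05, adjusted p = 4.16e-15) over GPI. GPI lay above Sham by 0.25 log2 units (SE 0.05, adjusted p = 6.85e-05) on the TMM scale and below it (-0.84) with library sizes only. Of the 5 MMP genes among the 10 that had at least 10 counts in every library, Mmp14 and Mmp2 were higher in GMTT than in Sham by at least 2-fold.

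Mmp19 (ENSRNOG00000006778, mRatBN7.2 chromosome 7, 1221343 to 1229555, plus strand) encodes a basement membrane protease of the family. It was low, with 9.69, 9.87 and 11.1 normalised CPM in Sham, 7.28, 6.64 and 4.82 in GPI and 19.7, 19.8 and 17.1 in GMTT. The groups did not overlap, with GPI lowest and GMTT highest. The changes were -0.70 log2 units (SE 0.13, adjusted p = 1.12e-05) for GPI against Sham, 1.58 log2 units (SE 0.12, adjusted p = 8.75e-14) for GMTT against GPI and 0.88 log2 units (SE 0.10, adjusted p = 1.87e-09) for GMTT against Sham.

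Of the inhibitors, Timp1 (ENSRNOG00000010208, mRatBN7.2 chromosome X, 1212972 to 1217664, minus strand) encodes the secreted inhibitor known to respond to inflammatory signals. Its libraries held 13.6, 14.5 and 15.1 normalised CPM in Sham, 14.6, 14.4 and 13.3 in GPI and 20.5, 18.2 and 18.6 in GMTT. Sham and GPI overlapped (-0.03 log2 units, SE 0.09, adjusted p = 0.788), and with library sizes only GPI was lower (-1.12, called). Every GMTT library stood above both other groups, by 0.41 log2 units (SE 0.08, adjusted p = 6.23e-05) over Sham and 0.43 log2 units (SE 0.09, adjusted p = 5.36e-05) over GPI. Timp1 lies inside Syn1 on the opposite strand, a gene with 269 counts in all 9 libraries.

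Timp2 (ENSRNOG00000033143, mRatBN7.2 chromosome 10, 103531505 to 103590611, minus strand) encodes the inhibitor that also takes part in pro-MMP2 activation. Its libraries held 61.8, 63.2 and 61.9 normalised CPM in Sham, 122, 115 and 120.5 in GPI and 102, 103 and 96.6 in GMTT. The groups did not overlap and Sham was lowest, with GMTT above it by 0.69 log2 units (SE 0.05, adjusted p = 3.12e-13). GPI lay above Sham by 0.94 log2 units (SE 0.05, adjusted p = 2.83e-17), or below it at -0.16 with library sizes only. GMTT lay below GPI, at -0.25 log2 units (SE 0.05, adjusted p = 4.09e-05), or above it at 0.85 with library sizes only. The annotated interval of Timp2 lies inside that of Cant1 on the same strand, which had 4280 counts, and how reads shared by both were counted is not given in the sources used here.

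Timp3 (ENSRNOG00000004303, mRatBN7.2 chromosome 7, 17521919 to 17571839, minus strand) encodes the inhibitor that binds to the extracellular matrix. Its libraries held 69.0, 68.3 and 68.9 normalised CPM in Sham, 197, 195 and 192 in GPI and 83.3, 88.8 and 83.0 in GMTT. GPI was highest, above Sham by 1.50 log2 units (SE 0.05, adjusted p = 1.83e-23), which kept its direction with library sizes only (0.41). GMTT was lower than GPI, at -1.20 log2 units (SE 0.05, adjusted p = 7.84e-21), but at -0.09 (adjusted p = 0.0765, not called, the highest of its 21 alternatives) with library sizes only. GMTT stood above Sham by 0.31 log2 units (SE 0.05, adjusted p = 3.80e-06), with no overlap. Endothelial markers (8 genes) were highest in GPI too on the TMM scale, at 848 to 876 normalised CPM against 312 to 329 in Sham and 404 to 437 in GMTT. As a share of counts GPI (0.0509% to 0.0529%) and GMTT (0.0518% to 0.0567%) overlapped. Against Sham, 7 of the 8 were higher in GPI and 1 lower. Skeletal muscle markers were also highest in GPI. The part of either marker set in the Timp3 values was not tested. Timp3 lies inside Syn3 on the opposite strand, which had 380 counts.

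**Figure D3:**
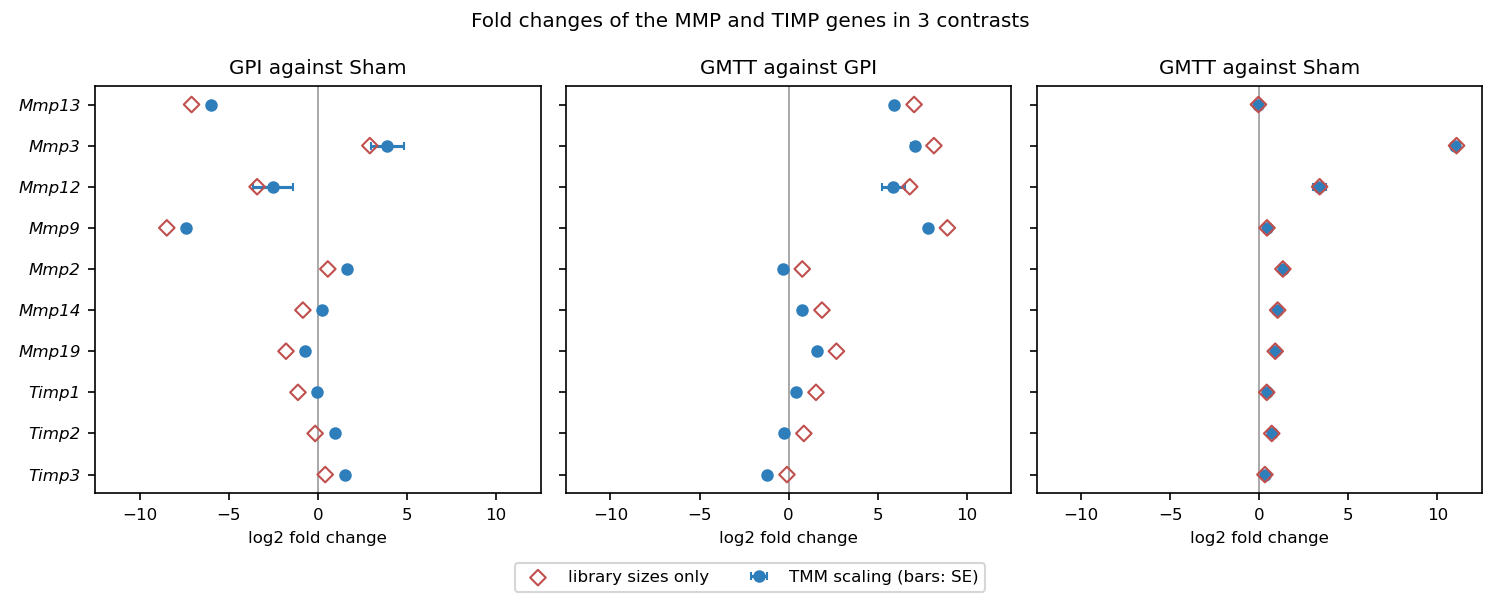
Log2 fold changes of the 10 genes in the 3 contrasts with TMM scaling (filled circles, bars are the SE) and with library sizes only (open diamonds). The scalings nearly coincide in GMTT against Sham, while in the contrasts with GPI Mmp14 and Timp2 (GPI against Sham) and Mmp2 and Timp2 (GMTT against GPI) lie on opposite sides of 0 under the 2 scalings.

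Levels of different genes were compared per length, by FPKM. In Sham the order of means was Mmp13 (121), Mmp9 (73.6), Timp3 (38.4), Mmp14 (22.6), Mmp2 (21.9), Timp1 (16.1), Timp2 (4.67), Mmp19 (3.97), Mmp12 (0.0935) and Mmp3 (0.00816). Of the neighbours in that order, Mmp14 and Mmp2 overlapped between libraries. In GPI Timp3 led at 111 FPKM, followed by Mmp2 at 70.1, Mmp14 at 27.5, Timp1 at 16.1 and Timp2 at 9.14. Below them, Mmp19 (2.48) and Mmp13 (1.93) overlapped, and Mmp9, Mmp3 and Mmp12 were under 1 FPKM. In GMTT the order was Mmp13 (118), Mmp9 (101), Mmp2 (55.6), Timp3 (48.5), Mmp14 (46.8), Mmp3 (24.2), Timp1 (21.8), Timp2 (7.69), Mmp19 (7.48) and Mmp12 (1.04). There the pairs Timp3 and Mmp14, Mmp3 and Timp1, and Timp2 and Mmp19 overlapped.

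The 7 MMP genes summed to 243 ± 1.06 FPKM in Sham, 103 ± 3.62 in GPI and 354 ± 1.49 with GMTT, and the 3 TIMP genes to 59.2 ± 0.840, 136 ± 1.49 and 78.0 ± 1.97. Within a library the ratio of the sums was 4.16, 4.11 and 4.04 in Sham libraries 1, 2 and 3, 0.751, 0.775 and 0.730 in GPI and 4.48, 4.49 and 4.66 in GMTT. Protease transcripts thus exceeded inhibitor transcripts in Sham and GMTT and fell short of them in GPI, in every library. By FPKM every GMTT library lay above every Sham library, but on summed counts they overlapped, with 4.84, 4.77 and 4.80 in Sham and 4.80, 4.76 and 4.97 in GMTT. The ratio describes transcripts and not enzyme activity, and no test was run on it, since the genes were chosen with results known and 3 libraries against 3 cannot give an exact permutation p below 0.1. Without Mmp13 the ratio was 2.07 in Sham and 3.02 in GMTT. With all 23 MMP genes over all 4 TIMP genes it was 7.55 (Sham), 0.806 (GPI) and 8.46 (GMTT).

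These sums differed in makeup between groups. Mmp13 gave 49.7% of the summed MMP FPKM in Sham, 1.89% in GPI and 33.4% with GMTT, and Mmp9 gave 30.3%, 0.432% and 28.4%. In GPI the sum was mostly Mmp2 (68.3%, against 9.02% in Sham and 15.7% in GMTT) and Mmp14 (26.8%, against 9.31% and 13.2%). Mmp3 gave 0.00337% in Sham and 6.84% in GMTT. Timp3 gave 64.9% of the summed TIMP FPKM in Sham, 81.5% in GPI and 62.2% with GMTT, and Timp1 gave 27.2%, 11.8% and 27.9%. Timp2 gave 7.90%, 6.70% and 9.86%, with a gene length in the table of 13014 bases against 873 to 3166 for the other 9 genes, which lowers its FPKM.

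**Figure D4:**
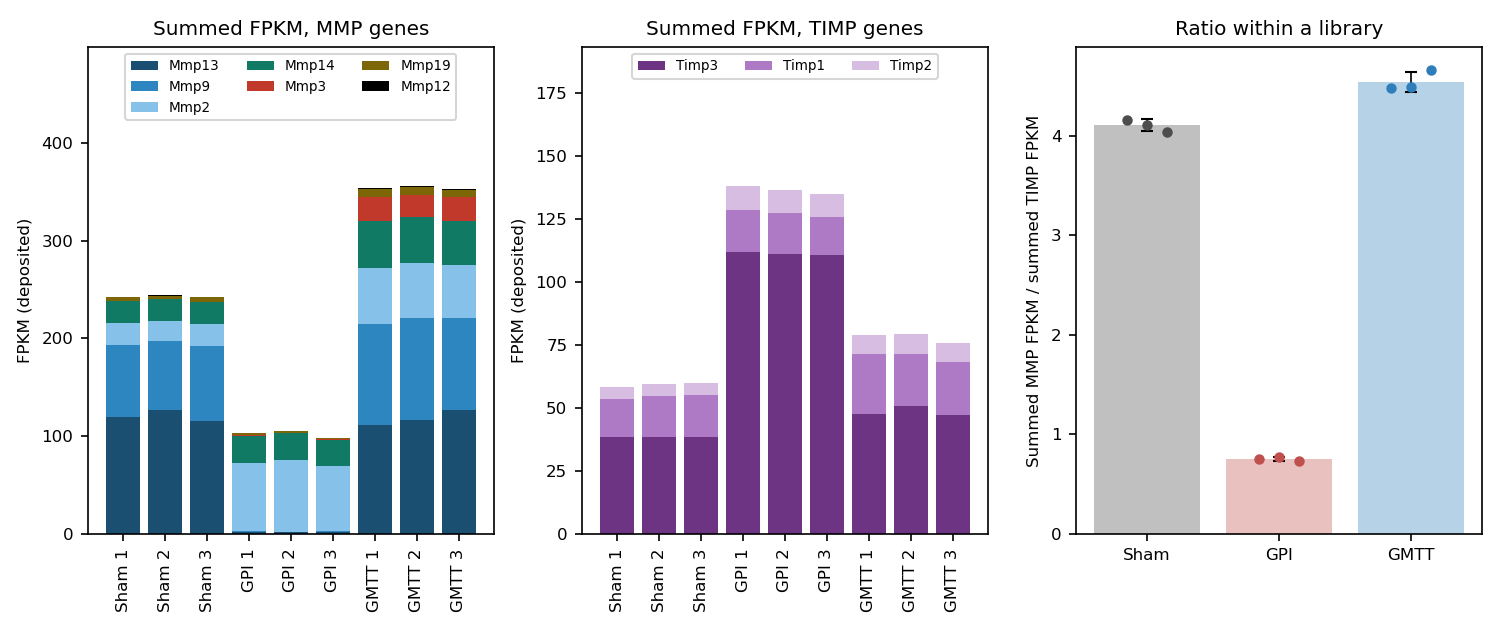
Deposited FPKM of the 7 MMP genes and of the 3 TIMP genes stacked for each of the 9 libraries, and the ratio of the sums within each library (points are libraries, bars the mean of 3, error bars the SD). The ratio was above 4 in all Sham and GMTT libraries and below 1 in all GPI libraries, and Mmp3 (red) adds visibly to the sum in GMTT only.

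Single enzyme and inhibitor pairs did not all follow the sums. Mmp9 over Timp1 was 4.59 ± 0.260 in Sham, 0.0274 ± 0.0108 in GPI and 4.63 ± 0.332 with GMTT, and Sham and GMTT overlapped. Mmp13 over Timp1 was 7.52 ± 0.573, 0.120 ± 0.0259 and 5.45 ± 0.651, with every GMTT library below every Sham library. Mmp3 over Timp1 was 0.0106 in GPI and 1.11 ± 0.0509 in GMTT. Mmp14 over Timp2, the pair that works with pro-MMP2, was 4.84 ± 0.189 in Sham, 3.01 ± 0.0743 in GPI and 6.09 ± 0.0641 with GMTT, and no groups overlapped. Mmp14 over Timp3 had the same order, at 0.588 ± 0.0131, 0.247 ± 0.00209 and 0.965 ± 0.0280. Mmp2 over Timp2 differed from all of these, at 4.69 ± 0.235 in Sham and 7.68 ± 0.620 and 7.23 ± 0.0953 in GPI and GMTT, which overlapped.

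Of the 17 other MMP and TIMP genes in the table, 12 were tested. In GPI against Sham 4 were higher and 6 lower (median log2 fold change -0.76; 3 and 8 with library sizes only), in GMTT against GPI 6 higher and 4 lower (median 0.72; 9 and 3), and in GMTT against Sham 5 higher, none lower and 7 not called (median 0.21). Timp4, an inhibitor known from muscle and heart, had log2 fold changes of 4.58 in GPI against Sham, -3.67 in GMTT against GPI and 0.91 in GMTT against Sham. Its FPKM was 0.993, 24.3 and 1.91 in Sham, GPI and GMTT. The membrane-bound Mmp15 had the same pattern, with 4.11, -2.65 and 1.46. Mmp25, a membrane-bound protease of neutrophils, had the opposite one, with -4.51, 5.13 and 0.61, like Mmp8. All 12 changes of these 4 genes, Mmp8 included, were called by edgeR and kept their direction with library sizes only.

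Genes that activate, hold or clear MMPs were taken as 1 list of 14, of which 13 were tested. In GPI against Sham 6 were higher and 7 lower, in GMTT against GPI 7 higher and 5 lower, and in GMTT against Sham 10 higher and 1 lower (median log2 fold changes -0.33, 0.34 and 0.28). With library sizes only the first 2 splits were 4 and 7, and 9 and 4. The plasminogen activator genes Plat and Plau, whose products form plasmin, which can activate pro-MMPs, were higher in GPI than in Sham (log2 fold changes 3.69 and 2.73), lower in GMTT than in GPI (-2.34 and -1.88) and higher in GMTT than in Sham (1.35 and 0.85). Lcn2, a neutrophil gene whose product binds MMP9, followed Mmp9, with log2 fold changes of -6.84, 7.10 and 0.26. Cd44, a surface receptor that can hold MMP9, changed by -1.69, 1.88 and 0.19 log2 units in the same order of contrasts. Furin, the convertase that removes the propeptide of MMP14, was the 1 gene lower in GMTT than in Sham (-0.52 log2 units, SE 0.05, adjusted p = 9.33e-10), and gave -1.40 and 0.88 in the other contrasts. Lrp1, a receptor that takes up MMPs and TIMPs, was 0.92 log2 units higher in GMTT than in Sham, and 1.00 higher in GPI than in Sham, or -0.0943 with library sizes only. GMTT against GPI gave -0.08 with no call, and 1.02 with library sizes only.

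Of 14 matrix genes whose products the enzymes cut, 12 were higher and 2 lower in GPI against Sham (7 and 7 with library sizes only), 4 higher and 8 lower in GMTT against GPI (10 and 3 with library sizes only), and 11 higher and 2 lower in GMTT against Sham. The median log2 fold changes were 1.15, -0.32 and 0.86. Col3a1, the collagen of fibrous repair, was 2.56 log2 units higher in GPI and 2.07 higher in GMTT than in Sham. GMTT against GPI gave -0.49, or 0.61 with library sizes only. Col4a1 of basement membranes had log2 fold changes of 2.66, -1.69 and 0.97 in the 3 contrasts. Fn1, fibronectin, was 1.42 log2 units higher in GMTT than in Sham, and 0.46 higher than in GPI. Col1a1, the main collagen of bone, was 0.57 log2 units higher in GMTT than in Sham. Against Sham, GPI had 0.96 for Fn1 and 0.21 for Col1a1, which turned to -0.14 and -0.88 with library sizes only. Spp1, osteopontin, which MMP3 can cut, was lower in GMTT than in Sham, at -0.83 log2 units (SE 0.04, adjusted p = 4.91e-17). The other gene lower there was the cartilage marker Col2a1, at -2.53 log2 units. Both were also lower in GPI than in Sham (Spp1 at -4.58, Col2a1 at -1.90).

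A list of 20 transcription factors and cytokines known to act on MMP genes had 18 members tested, 8 higher and 9 lower in GPI against Sham (4 and 12 with library sizes only), 9 higher and 8 lower in GMTT against GPI (14 and 4), and 11 higher and 2 lower in GMTT against Sham (median log2 fold changes -0.17, 0.19 and 0.39). The AP-1 subunit genes Jun and Fos were highest in GPI. The other AP-1 subunits tested are named too, whatever their p. In GPI against Sham Fosb gave 3.21 and Jund 0.43, or -0.66 for Jund with library sizes only. Fosl2 was lower (-0.31) and Fosl1 was not called (-0.07), at -1.40 and -1.16 with library sizes only. The part of AP-1 in the MMP values was not tested. Jun changed by 3.93, -2.80 and 1.13 log2 units, and Fos by 3.10, -2.13 and 0.97, for the 3 contrasts in the order used above. Junb was listed at 0 in all 9 libraries. On the same scale Tgfb1, a cytokine of bone matrix, changed by -2.12, 2.50 and 0.38, and Mef2c, a factor that muscle also expresses, by 4.06, -3.16 and 0.91. Runx2, a factor of osteoblasts and hypertrophic chondrocytes that was singled out after its values were seen, changed by -1.82, 1.80 and -0.02; the last was not called. Runx2 was thus lower in GPI than in both other groups. Of all genes tested, 48.1% were called lower in GPI than in Sham and 45.7% higher in GMTT than in GPI. The part of Runx2 in the MMP values was not tested.

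The genes closest in pattern were found by the root mean square difference of centred log2 CPM over the 9 libraries, with no test. Nearest to Mmp2 were Strip2 (0.0477), Col6a1 (0.0583) and Col6a2 (0.0955), of which Col6a1 and Col6a2 encode chains of collagen VI made by fibroblasts. For Mmp13 Pla2g2a (0.112) and Zbp1 (0.154) are given, and for Mmp9 Trpm2 (0.132), Plek (0.243) and Abca13 (0.268). Plek and Trpm2, near Mmp9, are known from myeloid cells. Timp3 had Snrk (0.0447), Glud1 (0.0481) and Pcyox1 (0.0484). Mmp3 had no close neighbour, the nearest being Atp6ap1l at 1.63. With 3 groups of tight replicates, this measure is set mostly by the 3 group means.

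**Figure D5:**
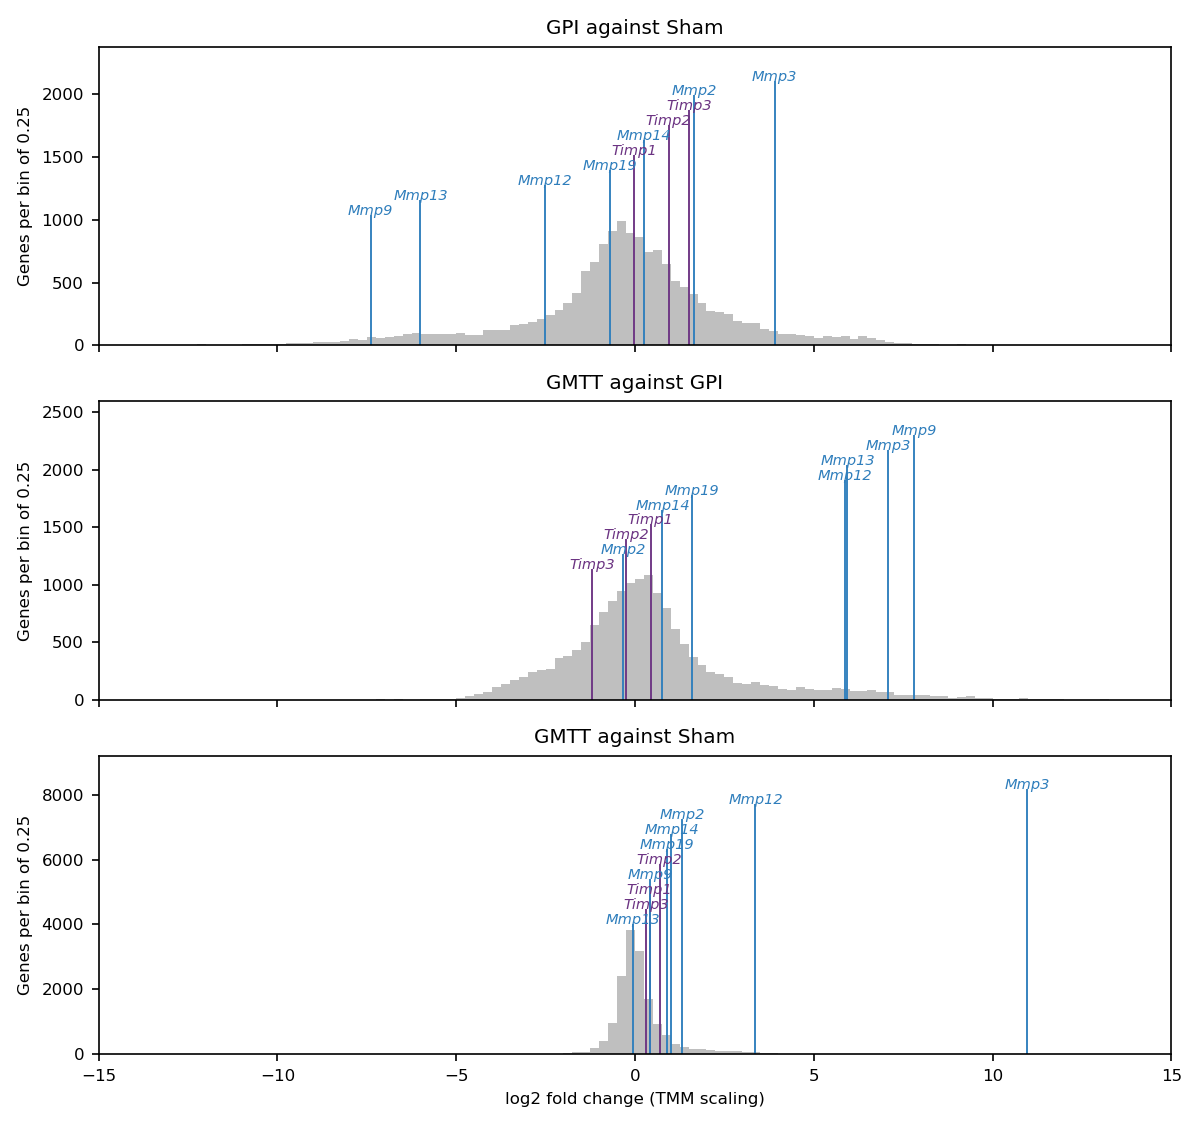
Histograms of the log2 fold changes (TMM scaling) of all 15936 genes tested, in bins of 0.25, with the 10 genes marked as lines at their own value (MMP blue, TIMP purple; line height carries no value). In GMTT against Sham most genes lay close to 0. Mmp3, which passed the filter on low counts only through GMTT, lay farthest to the right. In the contrasts with GPI all 10 lay within the spread of all genes.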

How the data were processed

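RNA from 9 rat femurs (3 Sham, 3 GPI, 3 GMTT) was extracted with TRIzol, selected for poly(A) and sequenced as strand-specific paired-end libraries, per the labels' protocols. The authors deposited raw counts per gene and FPKM values. Per the submitters' processing notes, mRatBN7.2 was the genome. Aligner, counter and strand setting: not given in the sources used here. The deposited FPKM equalled the count divided by the gene's length and by 1 constant per library. That constant was 1.31 to 1.32 times the library's total counts in Sham, 0.598 to 0.608 in GPI and 1.29 to 1.30 in GMTT.

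All 9 libraries entered 1 model of the 3 groups in edgeR 4.0.16 (R 4.3.3) with TMM scaling, filterByExpr with a minimum count of 10, which left 15936 genes, and the quasi-likelihood test. Adjusted p-values are Benjamini-Hochberg over all genes tested, with a threshold of 0.05. The SE is the log2 fold change divided by the square root of F. Intervals of ratios of summed counts are exact at 95% and cover counting error only. The test was checked on simulated data in which few genes changed, as many up as down. That check does not cover the scaling in the contrasts with GPI, where most genes were called. Motifs were searched in RefSeq promoter windows in Python 3.11.15, and figures drawn with matplotlib 3.10.9. Differences between libraries of a group exceeded counting noise in every pair (chi-square per degree of freedom 1.94 to 4.88).

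The 10 genes and the gene lists were chosen with earlier results of these data known. Genes named beyond the 10 were, of each list, up to 4 with the smallest p in a contrast and up to 3 with the highest FPKM, and the 3 genes closest in pattern to a member, with exceptions named in the text. A few genes that this rule gave are not reported here. Alternatives tried for the tests were library sizes only, DESeq2's median-of-ratios factors, scaling without skeletal muscle, erythroid and mitochondrial genes, DESeq2 1.42.0, no filter on low counts, at least 5 CPM in 3 libraries, only the 6 libraries of a contrast, the library number as a block, limma 3.58.1 on log2(FPKM + 1) and log2(FPKM + 0.1), at least 2-fold, and each library left out. For the ratio of sums they were all MMP over all TIMP genes, no Mmp13, and summed counts.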

Additional observations from a re-analysis of the deposited data

How the results depend on the processing

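Of the single-gene values under the alternatives, 1895 kept their side of the threshold, 9 reversed, 42 lost their call and 2 gained one. Most of the 42 came with the 2-fold minimum, which uses the main fit and only adds a fold cut. The rest were Mmp12 in GPI against Sham, Timp3 in GMTT against GPI and Mmp9 in GMTT against Sham. A reversal is a change of direction with a call in at least 1 of the 2 fits. Changes of direction with no call in either fit, as for Timp1 in GPI against Sham (up to 0.03), are among the 1895. Every reversal came with library sizes only: in GPI against Sham Mmp14 (-0.84), Timp2 (-0.16), Lrp1 (-0.0943), Col1a1 (-0.88) and Fn1 (-0.14), and in GMTT against GPI Mmp2 (0.77), Timp2 (0.85), Lrp1 (1.02) and Col3a1 (0.61). That setting called 3 of the 10 genes higher and 7 lower in GPI against Sham, and 0 lower in GMTT against GPI. Over all genes it called 3521 higher in GPI against Sham (6387 with TMM), and 11503 higher and 3016 lower in GMTT against GPI (7285 and 6400 with TMM); its construction, with no factor between libraries, sets this shift. At 2-fold or more, by construction fewer passed: in GPI against Sham 3 of the 10 genes were higher, with 9285 of all genes called (4257 higher, 5028 lower; 14049 without the fold minimum). In GMTT against GPI 6 of the 10 were called, 1 lower, with 8453 of all genes (4558 and 3895; 13685 without). In GMTT against Sham 4 were called, 4 higher, with 1854 of all genes (1465 and 389; 9218 without).

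The ratio of summed MMP over TIMP FPKM in Sham, GPI and GMTT was 7.55, 0.806 and 8.46 with all family genes, 2.07 (Sham) and 3.02 (GMTT) without Mmp13, and 4.81, 0.948 and 4.85 on summed counts, where Sham and GMTT overlapped. Across 18 count-based alternatives GMTT against Sham stayed within 10.50 to 12.67 log2 units for Mmp3, 1.28 to 1.35 for Mmp2 and 1.00 to 1.06 for Mmp14. Library numbers are shared between the groups but did not pair the libraries: none of 9 correlations of same-numbered deviations was above 0.1 (lowest -0.146, highest 0.0614), and 5 of 18 fitted best with their own number. With the number as a replicate block, 9, 10 and 9 of the 10 genes and 13960, 13574 and 8815 of all genes were called. Mmp3 and Mmp12 rest on few counts outside GMTT, and Mmp12 was too low to test at 5 CPM in 3 libraries.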
